A study of Mus musculus with 15 samples.

Results

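The genes described here are 36 mouse genes of the mesenchymal matrix and of the transition from epithelial to mesenchymal cells. They are collagens, matrix glycoproteins and proteoglycans, enzymes that act on the matrix, transcription factors, receptors and adhesion molecules, and genes of the cytoskeleton and smooth muscle. Members were found as every non-control probe of the array whose gene name equalled a listed symbol. Of the 36 symbols, 35 had a probe, 42 probes in all, and all 35 were among the 21217 genes tested of 30905 gene names on the array. No probe carried the name Col6a3, which is not described further.

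RNA was measured in embryonic stem (ES) cells of the mouse and, under the label EB9, in embryoid bodies, the aggregates in which such cells differentiate. In each, cells carrying the treatment label "Cbx7 depleted" (hairpin name KD33) were set beside controls with treatment "none", which the series' design text calls shCtr for the ES cells. There were 3 ES control arrays (replicates 2, 3 and 4) and 4 arrays each of ES KD33, EB9 control and EB9 KD33, all titled biological replicates. KD33 was the only hairpin, so an effect of Cbx7 loss and one particular to this hairpin cannot be told apart. The ES line, the culture of the bodies and the meaning of the 9 in EB9 are not given in the sources used here.

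Mesenchymal cells lie singly in a matrix that they secrete themselves. Fibrillar collagens give this matrix its tensile strength, small proteoglycans such as decorin and lumican bind and space the fibrils, and lysyl oxidases cross-link them. Transcription factors of the Snail, Zeb and Twist families repress epithelial adhesion genes when cells leave an epithelium, and in the embryo they act in mesoderm and neural crest. Cbx7 is a chromodomain subunit of Polycomb repressive complex 1, which keeps many developmental genes silent in ES cells, often at promoters rich in CG dinucleotides.

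The promoter sequence of 4 members is shown because they mark the extremes of the results below. Twist2 and Alcam had the largest called rises in ES KD33 cells, and Col3a1 and Acta2 were among the members with the largest rises in EB9. The pairs are not separate classes, as Twist2 was also among the largest rises in EB9 and Acta2 also rose in ES KD33 cells. These 4 were chosen after their values were seen. Each sequence is the 250 bases before the annotated start in RefSeq (GRCm38.p6), 5′ to 3′ on the gene's strand, with every CG in capitals. The motif CG reads the same on both strands.
Twist2, chr1:91801211-91801460, plus strand: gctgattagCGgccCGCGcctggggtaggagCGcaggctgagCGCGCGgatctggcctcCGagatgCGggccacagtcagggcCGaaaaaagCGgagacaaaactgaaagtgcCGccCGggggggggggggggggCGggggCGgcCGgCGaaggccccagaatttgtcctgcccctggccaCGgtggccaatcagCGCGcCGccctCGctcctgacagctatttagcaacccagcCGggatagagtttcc
Alcam, chr16:52453082-52453331, minus strand: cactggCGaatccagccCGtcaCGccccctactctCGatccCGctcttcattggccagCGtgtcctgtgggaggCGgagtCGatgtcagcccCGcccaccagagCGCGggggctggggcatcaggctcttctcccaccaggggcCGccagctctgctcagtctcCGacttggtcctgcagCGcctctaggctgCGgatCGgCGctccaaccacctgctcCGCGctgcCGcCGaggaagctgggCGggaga
Col3a1, chr1:45311288-45311537, plus strand: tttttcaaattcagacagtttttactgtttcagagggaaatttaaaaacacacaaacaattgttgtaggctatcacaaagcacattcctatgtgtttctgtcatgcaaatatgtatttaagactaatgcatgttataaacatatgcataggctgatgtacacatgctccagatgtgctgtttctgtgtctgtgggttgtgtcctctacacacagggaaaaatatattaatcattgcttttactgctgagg
Acta2, chr19:34255374-34255623, minus strand: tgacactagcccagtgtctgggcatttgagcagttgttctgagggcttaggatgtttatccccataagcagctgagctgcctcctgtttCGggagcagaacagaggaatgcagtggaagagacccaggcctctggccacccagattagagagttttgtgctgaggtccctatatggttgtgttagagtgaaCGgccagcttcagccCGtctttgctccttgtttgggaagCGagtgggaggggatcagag

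The Twist2 window held 23 CG and the Alcam window 22, and 13.3% and 14.8% of all 32851 windows of this length held as many. The Acta2 window held 4, which 62.2% of windows reached, and the Col3a1 window held 0, as did 7.87% of windows. The median over all windows was 6. Of the 36 members, 20 had an entry, with 25 windows between them. Among the transcription factors the counts were 27 for Snai1, 23 for Twist2, 18 for Twist1, 4 for Prrx1 and 6 to 14 over the 4 windows of Zeb2, and among the collagens they ran from 0 for Col3a1 to 28 for Col5a1. Col5a1 and Snai1, which had the highest counts, were not called in ES KD33 cells. A count describes the letters of the window and says nothing of what binds there.

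Levels are given as log2 of the processed signal less the array's 75th percentile, so that 0 is the signal of a bright feature and a difference of 1 is a 2-fold change. Probes differ in their response, so levels are compared between groups for a probe and not between genes. Each difference comes from 1 limma fit over all 15 arrays, with its standard error (SE), and was called at a Benjamini-Hochberg adjusted p under 0.05 over all genes tested. The tests were two-sided. A probe not well above background on any array of a group has only an upper bound there, and the change is then written "at least N-fold", counted from the dimmest signal that was well above background on those arrays. The 4 comparisons share groups, so their values are set side by side and are not independent of each other.

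The arrays lay on 4 slides that each held 1 array of every group, except that the fourth had no ES control. The place of an array on its slide was the same for all arrays of a group, so place and group cannot be told apart. Between 62.5% and 75.4% of features were well above background per array, the highest on EB9 control 2, and no feature was saturated. All 10 pluripotency markers, among them Pou5f1 and Fgf4, fell from ES to EB9 in control and in KD33, and their summed linear signal went from 371 to 382 on the ES control arrays to 17.7 to 23.1 on the EB9 control arrays. Neither of the 2 Cbx7 probes was called lower in KD33. The differences were -1.91 ± 1.23 (SE, limma adjusted p = 0.256) and -0.13 ± 0.23 (adjusted p = 0.733) in ES cells, and -0.27 ± 1.14 (adjusted p = 0.92) and -0.16 ± 0.22 (adjusted p = 0.708) in EB9. With slide as a term, added after the data were seen, the first probe was called lower in ES cells, by 1.41 ± 0.17 (adjusted p = 1e-04), and not in EB9 (adjusted p = 0.221). That probe was well above background on 3 of 3 ES control arrays but on only 2 of 4 ES KD33 arrays. The second probe was well above background on every array. In the same fit it differed by -0.03 ± 0.13 in ES cells (limma adjusted p = 0.868) and was not called in EB9 (adjusted p = 0.36). The arrays do not show by themselves a loss of Cbx7 RNA in the EB9 libraries labelled KD33. In the ES libraries a loss was called only with the slide term and by only 1 of the 2 probes.

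Of the 35 members, 25 were well above background on every ES control array and 9 on none, while 34 were so on every EB9 control array and 0 on none. Between ES and EB9 control cells, 33 members rose and Thy1 fell, and Cdh11 was not called. Over all genes, 33.2% were called higher and 41.5% lower in this comparison. The members' median difference was 3.97 on the log2 scale, beside -0.14 over all genes. In KD33 cells, 32 members rose, 1 fell and 2 were not called, with 33.8% of all genes called higher and 44.1% lower, and a median of 3.70 beside -0.18. Of the 35, 8 members passed the filter on dim probes through the EB9 groups alone (Col3a1, Col5a2, Postn, Lum, Dcn, Lox, Fap and Prrx1), and such a gene could hardly have passed without a rise. Of the 27 that also passed through an ES group, 25 rose and 1 fell in either comparison. Every called member differed in the same direction on each slide that held both groups. These are the same values that made the calls, so this is a description and no separate support. The plot of levels by array shows the 4 groups for all 35 members.

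**Figure D1:**
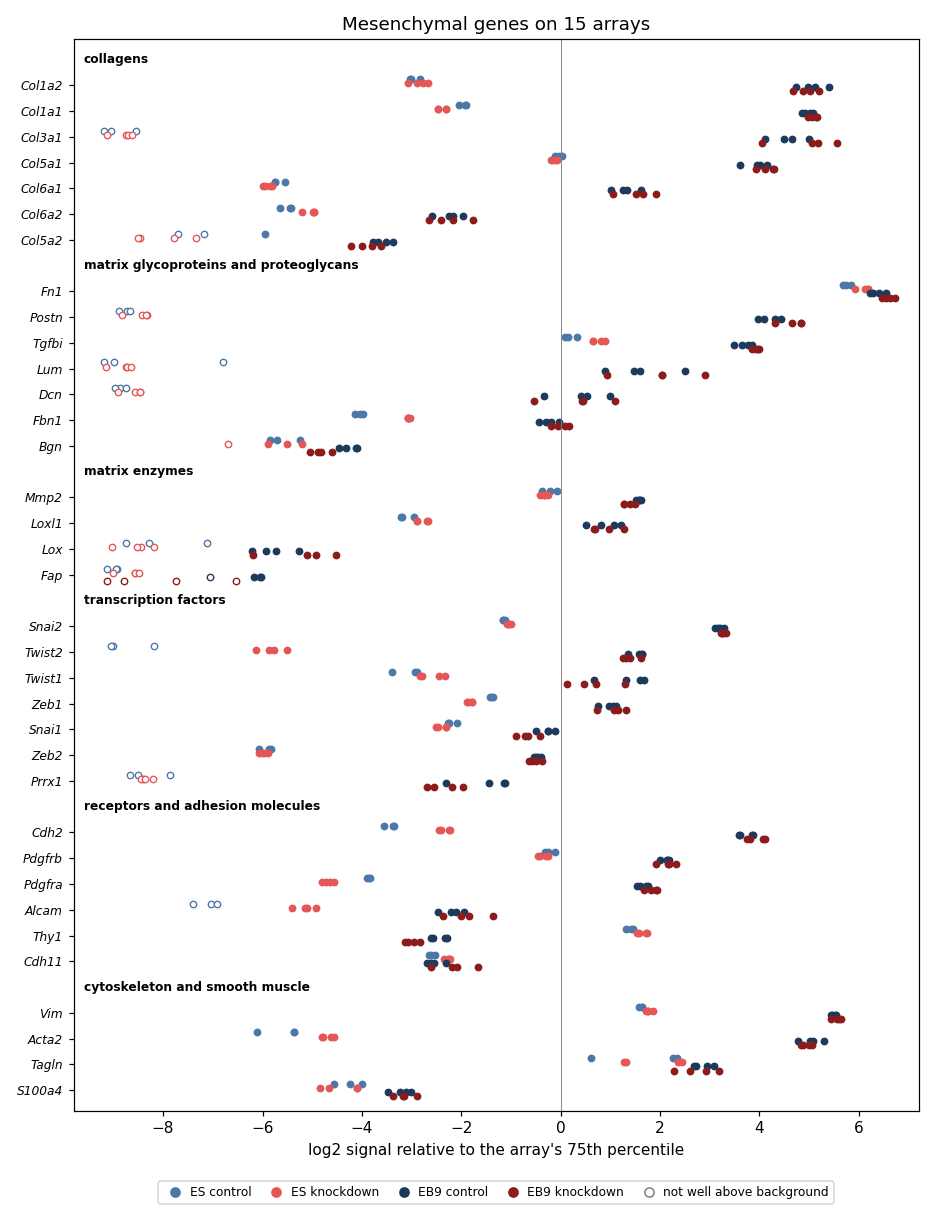
Log2 signal relative to the array's 75th percentile (horizontal axis) of the probe used for each of 35 members on the 15 arrays, coloured by group, with open points where the probe was not well above background; levels of different probes are not comparable. The EB9 arrays lie to the right of the ES arrays for most members, Thy1 lies the other way, and Cdh11 overlaps.

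All 7 collagens measured rose in both comparisons, by a median of 6.93 on the log2 scale in control and 7.43 in KD33. Of these, Col3a1 and Col5a2 passed the filter on dim probes through the EB9 groups alone. The type III collagen gene Col3a1 (probe at mm9 chr1:45405589-45405648) read -9.04, -8.55 and -9.18 on the ES control arrays and -8.75, -8.71, -9.12 and -8.63 on the ES KD33 arrays. It read 5.0, 4.12, 4.50 and 4.65 in EB9 control and 5.56, 4.06, 5.05 and 5.18 in EB9 KD33. No ES array was well above background and every EB9 array was, which gives a rise of at least 2750-fold in control (13.50 ± 0.30 as fitted, limma adjusted p = 1.99e-13) and at least 3070-fold in KD33 (13.77 ± 0.28, adjusted p = 7.39e-14).

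The 2 chains of type I collagen, the main fibre of connective tissue, were measured above background on all arrays. Col1a2 (mm9 chr6:4490619-4490678) read -3.04, -2.84 and -3.02 in ES control and 5.40, 4.74, 4.98 and 5.12 in EB9 control, a 260-fold rise (8.03 ± 0.15, limma adjusted p = 4.66e-14). In KD33 it went from -2.90, -2.77, -2.67 and -3.07 to 5.20, 4.68, 4.88 and 5.02, a 222-fold rise. The Col1a2 groups of ES and EB9 lay far apart in both, and control and KD33 overlapped at each stage. Col1a1 (mm9 chr11:94813115-94813174) read -2.04, -1.91 and -1.93 in ES control and 5.08, 4.86, 5.02 and 4.92 in EB9 control, a 122-fold rise (6.93 ± 0.07, adjusted p = 9.69e-16). In KD33 it went from -2.46, -2.30, -2.30 and -2.46 to 4.98, 5.06, 5.14 and 5.15, a 176-fold rise. All 4 ES KD33 values of Col1a1 lay below all ES control values, while in EB9 the groups overlapped. The collagen VI chain gene Col6a1 rose 126-fold in control and 172-fold in KD33, and the other chain measured, Col6a2, rose 9.61-fold and 6.86-fold. The collagen V gene Col5a1 rose 15.7-fold in control and 19.7-fold in KD33. Col5a2 rose by 3.36 ± 0.37 as fitted in control, where 1 of 3 ES arrays was well above background, and at least 6.57-fold in KD33.

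The 7 glycoprotein and proteoglycan genes all rose in both comparisons, by medians of 3.81 and 3.18. Of these, 3 (Postn, Lum and Dcn) were well above background on no ES array and passed the filter on dim probes through the EB9 groups alone. Postn encodes periostin, a matricellular protein of developing connective tissue. It read -8.72, -8.66 and -8.88 in ES control, -8.43, -8.33, -8.82 and -8.34 in ES KD33, 4.43, 3.97, 4.32 and 4.09 in EB9 control, and 4.84, 4.32, 4.84 and 4.65 in EB9 KD33. Its rise was at least 2140-fold in control (12.96 ± 0.16, limma adjusted p = 1.53e-15) and at least 2490-fold in KD33.

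Lum, for lumican, read -6.80, -8.99 and -9.19 in ES control and 2.51, 0.89, 1.59 and 1.48 in EB9 control, with -8.75, -8.72, -9.14 and -8.64 in ES KD33 and 2.91, 0.93, 2.04 and 2.04 in EB9 KD33. The rise was at least 350-fold in control (9.95 ± 0.57, limma adjusted p = 2e-09) and at least 387-fold in KD33. Dcn, for decorin, read -8.87, -8.75 and -8.97 in ES control and 0.99, -0.34, 0.41 and 0.52 in EB9 control, with -8.56, -8.46, -8.91 and -8.47 in ES KD33 and 1.10, -0.53, 0.42 and 0.44 in EB9 KD33. Both small proteoglycans were lowest on replicate 2 of each EB9 group and highest on replicate 1. Dcn rose at least 152-fold in control and at least 126-fold in KD33. The fibrillin gene Fbn1 rose 14.0-fold and 8.36-fold, and Tgfbi, a secreted adhesion protein induced by TGF-beta, 11.3-fold and 9.05-fold. The smallest rises were those of biglycan (Bgn), at 2.56-fold and 1.97-fold, and of fibronectin (Fn1), at 1.53-fold and 1.40-fold, and Fn1 was well above background on all ES arrays.

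Among the matrix enzymes, 4 of 4 rose in control and 3 of 4 in KD33. Lox and Fap passed the filter on dim probes through EB9 groups alone and could hardly have passed without a rise. Loxl1, a lysyl oxidase that cross-links elastin, read -2.95, -3.22 and -3.19 in ES control and 1.21, 0.51, 0.82 and 1.08 in EB9 control, a 16.2-fold rise (4.02 ± 0.17, limma adjusted p = 9.07e-11). In KD33 it went from -2.70, -2.90, -2.89 and -2.68 to 1.27, 0.68, 0.70 and 0.98, a 13.0-fold rise. Loxl1 did not overlap between the stages in either. Lox, which cross-links collagen, read -8.75, -7.12 and -8.28 in ES control, -8.45, -8.52, -9.02 and -8.18 in ES KD33, -5.27, -6.21, -5.72 and -5.93 in EB9 control, and -4.53, -6.19, -5.11 and -4.93 in EB9 KD33. It rose at least 2.10-fold in control (2.27 ± 0.42, adjusted p = 0.000249) and at least 2.70-fold in KD33. The gelatinase gene Mmp2 rose 3.45-fold and 3.22-fold. Fap, a membrane protease of activated fibroblasts, read -8.93, -8.94 and -9.12 in ES control, -8.57, -8.57, -9.00 and -8.48 in ES KD33, -6.05, -7.05, -6.18 and -6.04 in EB9 control, and -6.53, -9.13, -7.74 and -8.78 in EB9 KD33. It rose at least 1.44-fold in control (2.67 ± 0.48, adjusted p = 0.000202), where 3 of 4 EB9 arrays were well above background. In KD33, where 0 of 4 were, it differed by 0.61 ± 0.45 (adjusted p = 0.229).

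All 7 transcription factors rose in both comparisons, by medians of 4.39 in control and 4.31 in KD33. Of these, Prrx1 passed the filter on dim probes through the EB9 groups alone. Twist2, a basic helix-loop-helix factor of dermal and limb mesenchyme (probe at mm9 chr1:93744519-93744577), read -8.18, -9.00 and -9.05 in ES control and 1.58, 1.36, 1.63 and 1.64 in EB9 control. Its rise was at least 340-fold (10.30 ± 0.20, limma adjusted p = 4.46e-14). In KD33 it went from -5.76, -5.50, -6.13 and -5.87 to 1.61, 1.26, 1.32 and 1.39, a 148-fold rise from a level that was well above background on all 4 ES KD33 arrays.

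Prrx1, a homeobox factor of limb and craniofacial mesenchyme (mm9 chr1:165175375-165175434), read -7.86, -8.51 and -8.67 in ES control, -8.41, -8.20, -8.44 and -8.36 in ES KD33, -2.31, -1.12, -1.14 and -1.44 in EB9 control, and -2.69, -1.96, -2.19 and -2.54 in EB9 KD33. Its rise was at least 40.9-fold in control (6.85 ± 0.28, limma adjusted p = 6.06e-11) and at least 19.4-fold in KD33 (6.01 ± 0.26, adjusted p = 8.85e-11). Zeb2, a zinc-finger repressor of E-cadherin, read -6.08, -5.87 and -5.82 in ES control, -6.02, -5.89, -6.07 and -5.98 in ES KD33, -0.53, -0.50, -0.40 and -0.46 in EB9 control, and -0.38, -0.64, -0.50 and -0.58 in EB9 KD33. The Zeb2 values of control and KD33 overlapped at both stages, and the rises were 43.7-fold and 44.2-fold. Twist1, needed for cranial mesenchyme, read -3.40, -2.93 and -2.90 in ES control, -2.84, -2.33, -2.44 and -2.79 in ES KD33, 0.67, 1.59, 1.68 and 1.32 in EB9 control, and 0.13, 1.29, 0.72 and 0.46 in EB9 KD33. Its rises were 21.0-fold in control and 9.52-fold in KD33. Of the remaining factors, Snai2 rose 20.2-fold and 19.8-fold, Zeb1 5.18-fold and 7.43-fold, and Snai1 3.80-fold and 3.32-fold.

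Of the 6 receptors and adhesion molecules, 4 rose, 1 fell and 1 was not called in both comparisons. Cdh2, for N-cadherin, the cadherin gained when E-cadherin is lost, read -3.37, -3.56 and -3.36 in ES control and 3.84, 3.58, 3.61 and 3.86 in EB9 control, a 142-fold rise (7.15 ± 0.11, limma adjusted p = 9.48e-15). In KD33 it went from -2.24, -2.41, -2.45 and -2.22 to 4.12, 3.74, 3.81 and 4.07, a 76.8-fold rise. Pdgfra, a receptor for platelet-derived growth factor on mesenchymal progenitors (mm9 chr5:75593888-75593947), read -3.86, -3.84 and -3.90 in ES control and 1.54, 1.59, 1.75 and 1.71 in EB9 control, a 45.7-fold rise. In KD33 Pdgfra went from -4.80, -4.56, -4.64 and -4.72 to 1.92, 1.68, 1.94 and 1.81, a 91.7-fold rise. The ES KD33 arrays lay above the ES control arrays for Cdh2 and below them for Pdgfra. Alcam, an adhesion molecule of the immunoglobulin family, read -7.04, -7.39 and -6.92 in ES control, -5.14, -5.4, -5.11 and -4.92 in ES KD33, -1.94, -2.46, -2.20 and -2.11 in EB9 control, and -1.37, -2.36, -2.0 and -1.85 in EB9 KD33. It rose at least 25.5-fold in control and 9.51-fold in KD33, and Pdgfrb rose 5.05-fold and 5.64-fold.

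Thy1 is a surface glycoprotein used as a marker of mesenchymal stromal cells and is also expressed by mouse ES cells. Its values are given in full because it was the single member that fell, a choice made after they were seen. It read 1.46, 1.32 and 1.42 in ES control, 1.74, 1.53, 1.58 and 1.71 in ES KD33, -2.56, -2.33, -2.60 and -2.29 in EB9 control, and -2.84, -3.08, -3.14 and -2.96 in EB9 KD33. It was 14.3-fold lower in EB9 than in ES control cells (-3.84 ± 0.09, limma adjusted p = 4.32e-13) and 25.0-fold lower in KD33 (-4.65 ± 0.09, adjusted p = 3.38e-14).

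The Cdh11 result depended on the probe. The gene's brighter probe, whose listed alignment spans 33 bases (mm9 chr8:105156895-105156927), differed between stages by 0.05 ± 0.16 in control (limma adjusted p = 0.784). The other probe for this mesenchymal cadherin read -9.04, -8.99 and -9.19 in ES control, -8.74, -8.69, -9.14 and -8.61 in ES KD33, 1.10, 0.93, 1.14 and 1.00 in EB9 control, and 1.52, 0.88, 1.31 and 1.17 in EB9 KD33. By that probe Cdh11 rose at least 238-fold in control and at least 229-fold in KD33, and the rule of 1 probe per gene leaves this rise out of the counts.

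The 4 genes of the cytoskeleton and smooth muscle all rose in both comparisons. Acta2, the actin of smooth muscle and myofibroblasts (mm9 chr19:34316060-34316119), read -6.12, -5.37 and -5.37 in ES control and 5.29, 4.77, 5.01 and 5.07 in EB9 control, a 1610-fold rise (10.66 ± 0.17, limma adjusted p = 1.1e-14). In KD33 Acta2 went from -4.80, -4.62, -4.57 and -4.78 to 4.99, 4.83, 4.88 and 5.06, a 793-fold rise. Vim, the intermediate filament of mesenchymal cells, read 1.58, 1.64 and 1.63 in ES control, 1.72, 1.85, 1.75 and 1.75 in ES KD33, 5.44, 5.54, 5.51 and 5.45 in EB9 control, and 5.55, 5.44, 5.65 and 5.61 in EB9 KD33. Its rises were 14.6-fold and 13.9-fold. S100a4, a calcium-binding protein of motile cells, read -4.56, -4.23 and -4.0 in ES control, -4.67, -4.10, -4.09 and -4.85 in ES KD33, -3.01, -3.47, -3.12 and -3.23 in EB9 control, and -2.90, -3.37, -3.18 and -3.16 in EB9 KD33. Its rises were 2.08-fold and 2.42-fold, without overlap between the stages. By its dimmer probe S100a4 rose by 2.96 ± 0.27 in control and at least 12.6-fold in KD33 (5.03 ± 0.25 as fitted). Tagln (transgelin), also a smooth muscle gene, rose by 1.13 ± 0.42 in control (limma adjusted p = 0.025) and by 0.89 ± 0.38 in KD33 (adjusted p = 0.0482). The first was not called without ES control 2 (0.57) or EB9 control 3 (1.06), the second in 9 of 15 single-array omissions (0.70 to 0.94), all but those of an ES control array, ES KD33 2, ES KD33 3 and EB9 KD33 1.

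**Figure D2:**
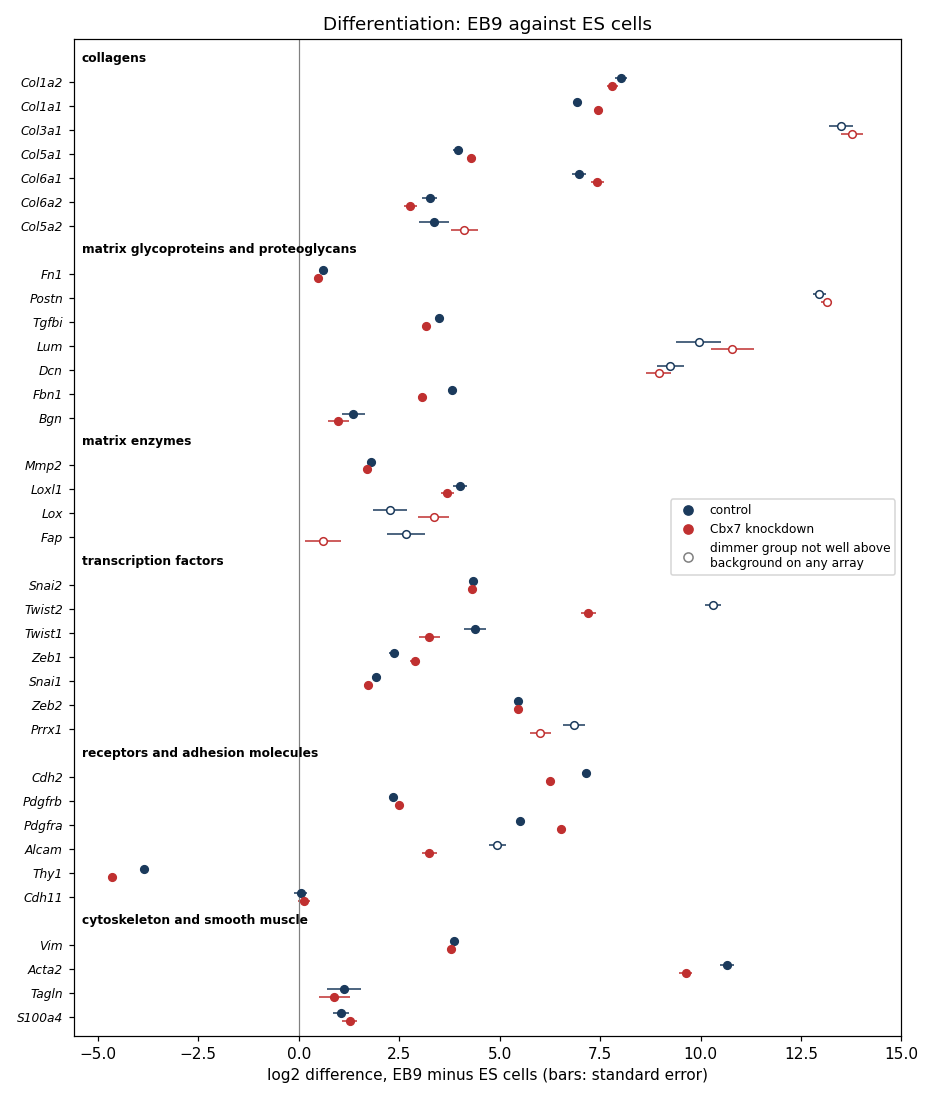
Log2 difference EB9 minus ES (horizontal axis) of each member with its SE, in control (blue) and KD33 (red), with open points where the dimmer group was not well above background on any array, so that the fitted value there depends on background signal. Differences run from -4.65 for Thy1 to 13.77 for Col3a1.

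An embryoid body holds many cell types, and in these bulk samples more cells of a type and more RNA per cell cannot be told apart. Markers of several other types changed in the same comparison. Of the markers tested in EB9 against ES control cells, 5 of 5 of blood, 6 of 7 of endothelium, 7 of 8 of visceral endoderm, 8 of 11 of parietal endoderm, 6 of 8 of cardiac muscle, 3 of 6 of smooth muscle, 2 of 5 of primitive streak and 1 of 5 of neural cells rose. Of the same lists, 3 of 5 neural markers fell, led by Tubb3 (-2.43 ± 0.23), as did 2 of 8 cardiac markers and 1 each of smooth muscle, visceral endoderm and parietal endoderm. The summed linear signal of the blood markers went from 0.861 to 0.95 on the ES control arrays to 120 to 233 on the EB9 control arrays, and the smooth muscle sum from 4.39 to 5.50 to 4.07 to 4.88. Over the 7 collagens it went from 1.36 to 1.44 to 87.6 to 129, and over the 7 transcription factors from 1.18 to 1.21 to 17.9 to 19.6. The part of any cell type in the members' rise was not tested.

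Genes that process collagen rose with the collagens. Of 15 genes for collagen synthesis, 13 rose and 0 fell between ES and EB9 control cells, led by the procollagen N-proteinase Adamts2 (5.85 ± 0.11). Of 29 other matrix genes 23 rose, led by the proteoglycan versican (Vcan, 6.77 ± 0.10), and 3 fell, led by Col5a3 (-5.74 ± 0.17). Of 19 TGF-beta pathway genes 15 rose, led by the ligand Tgfb2 (5.88 ± 0.63), and 3 fell. The 18 epithelial genes were mixed, with 8 rising, led by Krt19 (4.93 ± 0.14), and 7 falling, led by E-cadherin (Cdh1, -2.58 ± 0.15). E-cadherin stayed well above background on all EB9 arrays. In KD33 the counts of rises and falls were 14 and 0, 26 and 3, 16 and 3, and 6 and 8 for the 4 lists in that order.

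In ES cells, the largest called effects of KD33 on members were the rises of Twist2 and Alcam. Of the 35, 7 rose (Twist2, Alcam, Cdh2, Fbn1, Acta2, Tgfbi and Fn1) and 4 fell (Pdgfra, Zeb1, Col1a1 and Col5a2). Over all genes 21.9% were called higher and 16.5% lower, so the members' counts of 7 and 4 were near the background. Their median was 0.12 beside 0.04. By role, 2 of 7 collagens fell, 3 of 7 glycoproteins rose, 1 transcription factor rose and 1 fell, 2 receptors rose and 1 fell. The enzyme nearest to a call was Loxl1 (0.32 ± 0.17, limma adjusted p = 0.161), whose dimmer probe was called higher, by 0.45 ± 0.16 (adjusted p = 0.0447). With slide as a block, Loxl1, Col6a2 and Twist1 were also called higher, in a fit that called 10067 of all 21217 genes in either direction.

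Twist2 rose at least 2.06-fold in ES KD33 (2.93 ± 0.20, limma adjusted p = 3.2e-07), from 0 of 3 arrays well above background to 4 of 4. Within slides 1, 2 and 3 it differed by 2.43, 3.50 and 2.92, and with the authors' values the difference was 0.54. Alcam rose at least 3.26-fold (1.97 ± 0.21, adjusted p = 1.09e-05), also from 0 of 3 to 4 of 4 arrays, with 1.90, 1.99 and 1.80 within slides and 0.58 with the authors' values. Both genes kept their call in the 10 alternatives and 15 single-array omissions.

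Cdh2 rose by 1.10 ± 0.11 (limma adjusted p = 8.25e-06) and by 0.93 ± 0.08 (adjusted p = 1.58e-06) on its other probe. Fbn1 read -4.13, -3.97 and -4.03 in ES control and -3.08, -3.07, -3.07 and -3.04 in ES KD33, a rise of 0.98 ± 0.10 (adjusted p = 6.43e-06). Within slides Cdh2 differed by 1.13, 1.15 and 0.91 and Fbn1 by 1.05, 0.90 and 0.96. Acta2 rose by 0.93 ± 0.17 (adjusted p = 0.000747), with 1.32, 0.76 and 0.80 within slides and 0.41 with the authors' values. Tgfbi rose by 0.57 ± 0.09 (adjusted p = 0.000395) and Fn1 by 0.35 ± 0.09 (adjusted p = 0.00841), the latter by 0.19 with the authors' values. Within slides Tgfbi differed by 0.57, 0.50 and 0.58 and Fn1 by 0.35, 0.45 and 0.18. Control and KD33 arrays did not overlap for any of these 5 genes. The same held for 19 of the 35 members, of which only 10 were called, and the share over all genes was not counted.

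Pdgfra fell by 0.81 ± 0.08 in ES KD33 (limma adjusted p = 5.64e-06), with -0.93, -0.72 and -0.74 within slides and -0.34 under normexp background correction. Col1a1 fell by 0.42 ± 0.07 (adjusted p = 0.000462), with -0.41, -0.38 and -0.37 within slides and -0.28 under normexp, and Zeb1 fell by 0.43 ± 0.12 (adjusted p = 0.0107), with -0.37, -0.42 and -0.43 within slides. Col5a2 was called lower by 1.07 ± 0.37 (adjusted p = 0.0342), but only 1 of 3 control arrays and 0 of 4 KD33 arrays measured it above background. That Col5a2 call was lost in 5 of 10 alternatives, turned to 0.03 under normexp, and was lost without ES KD33 1, ES KD33 2, ES control 2 or ES control 3 (-0.58 without the last). Among members not called, Col1a2 differed by 0.11 ± 0.15 and Prrx1 by -0.00 ± 0.28, while the Twist1 arrays did not overlap, at 0.48 ± 0.28 (adjusted p = 0.209).

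S100a4 was another gene whose probes disagreed. The brighter one differed by -0.16 ± 0.20 in ES KD33 (limma adjusted p = 0.584). The dimmer one read -5.54, -5.98 and -5.78 in control and -8.24, -7.56, -7.96 and -8.24 in KD33, and by it S100a4 fell at least 1.81-fold (-2.23 ± 0.27, adjusted p = 3.96e-05), from 3 of 3 arrays well above background to 0 of 4. By this probe the effect of KD33 differed between EB9 and ES cells by 2.07 ± 0.37 (adjusted p = 0.00121).

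Of the lists of other genes, collagen synthesis had 4 higher and 2 lower of 15 in ES KD33 (Adamts2 0.67 ± 0.11, and the procollagen enhancer Pcolce -0.68 ± 0.18). The other matrix list had 10 higher and 9 lower of 29. Its largest called rise, Tnc, had no array well above background in either group, and its largest fall was that of Col14a1, at least 2.09-fold. The TGF-beta list had 2 higher and 6 lower of 19, with Tgfb2 falling from 2 of 3 arrays well above background to 0 of 4. The epithelial list had 6 higher, led by Cldn7 (0.78 ± 0.15), and 2 lower of 18. Beside these, 3 of 10 pluripotency markers fell, led by Klf4 (-0.57 ± 0.10), and 1 rose, and the summed signal was 344 to 408 in ES KD33 against 371 to 382 in control. Of 5 neural markers tested 3 rose, led by Neurod1 (1.62 ± 0.18), and 1 fell (Tubb3, -0.69 ± 0.23), and 2 of 5 primitive streak markers fell, led by Eomes (-1.13 ± 0.12), with summed signals of 2.47 to 2.61 against 2.69 to 3.21 and of 0.518 to 0.556 against 0.736 to 0.786. Of the markers with a probe, 1 of 6 neural and 3 of 7 primitive streak markers were well above background on no array in each ES group. Of parietal endoderm markers 1 of 11 rose and 4 fell, of visceral endoderm markers 2 of 8 fell and of endothelial markers 1 of 7 rose and 2 fell, with summed signals of 70.3 to 79.7 against 68.3 to 75.1, of 7.22 to 7.78 against 5.49 to 5.75 and of 1.62 to 2.34 against 1.37 to 2.30. Of 6 smooth muscle markers 1 rose, calponin (Cnn1, 0.69 ± 0.18), with sums of 5.26 to 6.70 against 4.39 to 5.50, and 1 of 8 cardiac markers rose. The part of such cells in the members' differences was not tested.

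In EB9, the calls between control and KD33 depended on whether slide entered the fit. Without it, of 35 members 0 rose, and 4 fell: Thy1, Snai1, Prrx1 and Fap. Over all genes 7.97% were called higher and 7.19% lower in this comparison. By limma without adjustment, 6 members were higher and 7 lower at p under 0.05. No share of all genes was taken at that unadjusted threshold. With slide as a block 4 were called higher (Postn, Tgfbi, Cdh2 and Cdh11) and 7 lower (the same 4, Bgn, Mmp2 and Twist1). In that fit 5669 of all 21217 genes were called in either direction, so the members' calls were near that share. The authors' values called 4 higher (Col1a1, Col5a1, Fn1 and Postn) and 4 lower, beside 2575 of 21217 genes. The median was 0.05 beside -0.01, and of the 14 collagens, glycoproteins and proteoglycans, 4 were higher (Postn, Fn1, Fbn1 and Tgfbi) and 1 lower (Bgn) without adjustment.

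Thy1 fell by 0.56 ± 0.09 (limma adjusted p = 0.00135), without overlap of the arrays given above and with -0.29, -0.75, -0.55 and -0.67 within slides 1 to 4. Snai1 fell by 0.39 ± 0.10 (adjusted p = 0.024), with -0.40, -0.16, -0.41 and -0.60 within slides, and Prrx1 by 0.84 ± 0.26 (adjusted p = 0.0447), with -0.38, -0.84, -1.05 and -1.10. Both were lower in KD33 on every slide, and their groups overlapped. Fap fell at least 1.33-fold (-1.72 ± 0.45, adjusted p = 0.022), from 3 of 4 arrays well above background to 0 of 4, and by 0.19 under normexp, where it was not called. Fap passed the filter on dim probes through EB9 control alone, where it was highest, so its fall is a description and no support for the count. Leaving out 1 array ended the Prrx1 call in 12 of 15 cases, (all but ES control 2, EB9 control 1 and EB9 KD33 2), the Snai1 call in 5 (EB9 KD33 1, 3 or 4, EB9 control 3 or 4) and the Fap call in 3 (EB9 KD33 4, EB9 control 3 or 4). The Fap call was also lost with quantile normalization and the authors' values, the Prrx1 call without the filter and with the mean of a gene's probes, and the Fap, Prrx1 and Snai1 calls in a fit of the compared groups alone. The second Prrx1 probe gave -0.34 ± 0.52 (adjusted p = 0.744).

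The nearest matrix gene was Postn, at 0.46 ± 0.14 (limma adjusted p = 0.0504 and, with slide as a block, 0.0461). Col3a1 differed by 0.39 ± 0.28, Col1a1 by 0.12 ± 0.07, Col1a2 by -0.12 ± 0.14 and Dcn by -0.03 ± 0.31, and none of these 4 was called. Mmp2 (-0.21 ± 0.07, adjusted p = 0.0545) and Bgn (-0.59 ± 0.26, adjusted p = 0.144) did not overlap between the groups but missed the threshold, and both were called lower with slide as a block, at adjusted p = 0.0118 and 0.0279. Twist1 differed by -0.66 ± 0.26 (adjusted p = 0.109) and was called lower with slide as a block (adjusted p = 0.00595). The dimmer Lox probe was called higher by 1.17 ± 0.31 (adjusted p = 0.026), while the brighter one differed by 0.60 ± 0.39 (adjusted p = 0.353).

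Of the other lists, 4 of 15 collagen synthesis genes rose in EB9 KD33 and 0 fell, led by the prolyl 4-hydroxylase subunit P4ha2 (0.71 ± 0.06, limma adjusted p = 5.35e-05). Of 29 other matrix genes 4 rose, led by Thbs1 (0.68 ± 0.13), and 4 fell, led by Fbln5 (-0.62 ± 0.06). In the TGF-beta list 1 of 19 rose and 3 fell, led by the co-receptor endoglin (Eng, -0.59 ± 0.10), and in the epithelial list 2 of 18 rose, led by Cldn4 (0.74 ± 0.17). Markers of other cells moved in the same comparison. Of 5 primitive streak markers tested 4 fell, led by brachyury (T, -2.79 ± 0.36, adjusted p = 0.000485), and the summed signal was 0.57 to 0.667 in KD33 against 0.897 to 1.48 in control. Of pluripotency markers 3 of 10 rose, led by Tdgf1 (0.45 ± 0.11), and 0 fell, with sums of 21.3 to 25.7 in KD33 against 17.7 to 23.1 in control. Of 6 smooth muscle markers tested 1 fell, desmin (Des, -0.33 ± 0.09), and their sums of 3.16 to 4.02 lay below the 4.07 to 4.88 of control. Of visceral endoderm markers 3 of 8 fell, led by Cubn (-1.28 ± 0.30), with sums of 17.5 to 42.0 against 26.8 to 33.7, and of parietal endoderm markers 4 of 11 fell and 1 rose, with sums of 110 to 127 against 123 to 135. Of the primitive streak markers with a probe, 1 of 7 in EB9 control and 2 of 7 in KD33 were well above background on no array, against 0 of both endoderm lists. Their part in the fall of Thy1, Snai1, Prrx1 and Fap was not tested.

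**Figure D3:**
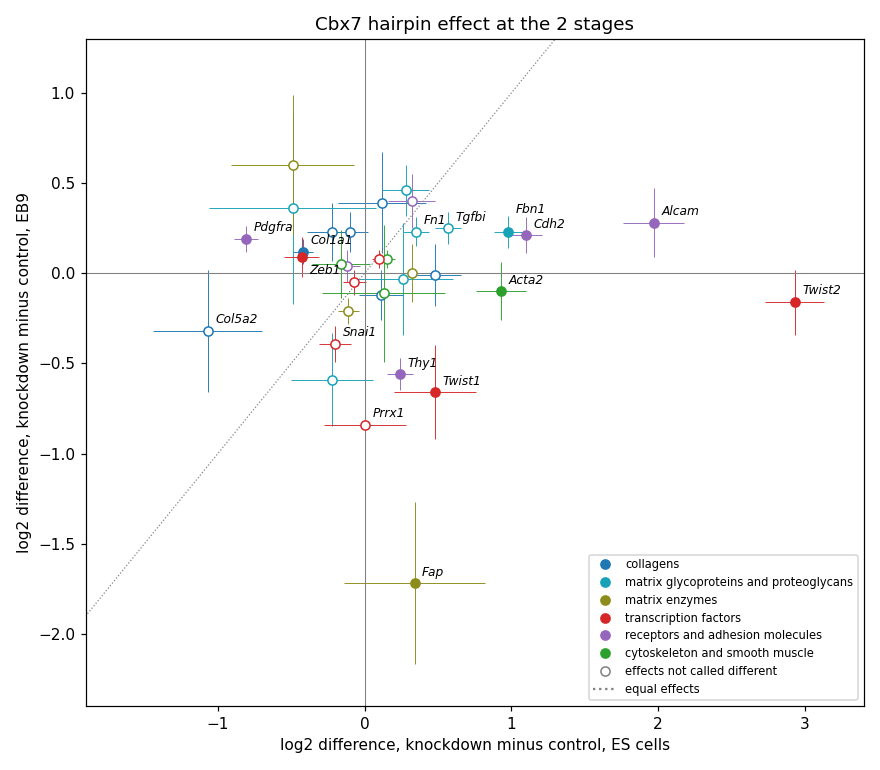
Log2 difference KD33 minus control in ES cells (horizontal axis) against the same difference in EB9 (vertical axis) for 35 members, with SE bars, coloured by role; filled points are members whose 2 differences were called unequal, and the dotted line marks equal differences. Twist2 lies at 2.93 and -0.16, and Pdgfra at -0.81 and 0.19.

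The difference between the effect of KD33 in EB9 and in ES cells was tested as an interaction in the same fit. It was called for 11 of 35 members, 3 higher in EB9 and 8 lower, where 12.7% of all genes were called higher and 16.9% lower. The members' shares were 8.57% and 22.9%, so their counts were near the background. Of the 8, Fap passed the filter on dim probes through EB9 control alone, where it was highest. Its value is thus a description and no support for the count. The members' median was -0.13 beside -0.04. For Twist2 the difference was -3.09 ± 0.27 (limma adjusted p = 6.89e-06), for Cdh2 -0.89 ± 0.15 (adjusted p = 0.000762), for Fbn1 -0.75 ± 0.13 (adjusted p = 0.000937) and for Acta2 -1.03 ± 0.23 (adjusted p = 0.00449). These genes rose in ES KD33 and were not called in EB9 KD33. Twist2 was well above background on 0 of 3 ES control arrays, so the size of its fitted difference depends on background signal. With slide as a block these 11 calls stood and Tgfbi was added at -0.30, while the calls over all 21217 genes went from 6296 to 8695. With the authors' values the Twist2 and Acta2 differences were -0.65 and -0.50.

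Alcam had a difference of -1.69 ± 0.28 (limma adjusted p = 0.000658), which was -0.38 and not called with the authors' values (adjusted p = 0.319). It was also not called under normexp. Alcam too was well above background on 0 of 3 ES control arrays, so the size of its fitted difference depends on background signal. Thy1 differed by -0.80 ± 0.13 (adjusted p = 0.000516), being 0.24 ± 0.09 in ES cells and -0.56 ± 0.09 in EB9. Pdgfra differed by 1.01 ± 0.11 (adjusted p = 2.66e-05), Col1a1 by 0.53 ± 0.10 (adjusted p = 0.00116) and Zeb1 by 0.52 ± 0.16 (adjusted p = 0.0241), and all 3 fell in ES KD33 and were not called in EB9 KD33. Twist1 (-1.14 ± 0.38, adjusted p = 0.0392) and Fap (-2.06 ± 0.66, adjusted p = 0.0311) lost their calls in 11 and 10 of the 15 single-array omissions. The Twist1 call held without ES KD33 1, ES KD33 4, EB9 control 1 or EB9 KD33 2, the Fap call without ES KD33 3, EB9 control 2 or EB9 KD33 1, 2 or 3, and the Zeb1 call was lost without ES control 4 (adjusted p = 0.0575). Among the alternatives, Fap was not called under normexp, with quantile normalization or with the authors' values. Twist1 was not called when the filter on dim probes was left out.

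**Figure D4:**
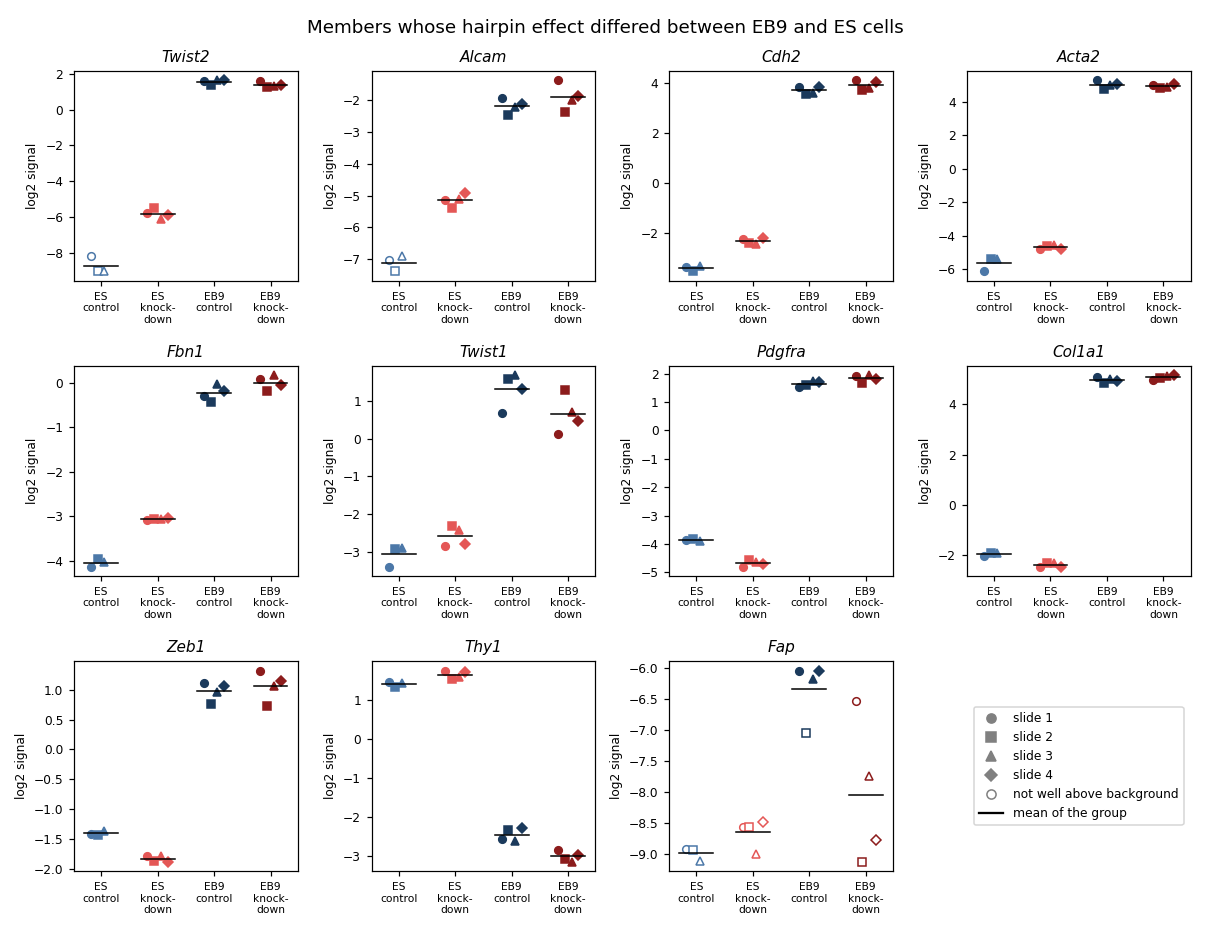
Log2 signal relative to the array's 75th percentile (vertical axis) on each array of the 4 groups for the 11 members whose KD33 effect differed between stages, with marker shape giving the slide and bars the group means. Twist2 and Alcam lie higher in ES KD33 than in ES control, while their EB9 groups overlap. Both were well above background on no ES control array, and Fap was so in EB9 control alone.

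Within the EB9 groups, most members outside the transcription factors were lowest on the same slide. Of the 14 collagens, glycoproteins and proteoglycans, 13 were lowest on slide 2 in EB9 control and 12 in EB9 KD33, and 12 and 8 were highest on slide 1. Their median deviation from the group mean was 0.22 on slide 1 in both groups, and -0.26 and -0.29 on slide 2. Lowest on slide 2 were also 4 of 4 matrix enzymes in EB9 control and 3 of 4 in KD33, 4 and 5 of 6 receptors and adhesion molecules, and 2 and 3 of 4 genes of the cytoskeleton and smooth muscle. Of the 7 transcription factors, 3 were lowest on slide 2 in each group, with median deviations of -0.03 and -0.02 there. Single factors differed on that slide, from -0.22 to 0.38 in EB9 control and from -0.34 to 0.64 in EB9 KD33. On slide 1, 4 factors were lowest in EB9 control and 3 in KD33, with Twist1, Prrx1 and Snai1 among them in both. A slide and anything else that its arrays share, such as a culture, cannot be told apart. This pattern is given as a description with no test. How many of all genes were lowest on slide 2 was not counted. Without that count, neither the pattern nor its contrast with the transcription factors can be called particular to the members. The EB9 control array on slide 2 also had the highest 75th percentile of signal among all arrays, with 75.4% of features well above background.

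**Figure D5:**
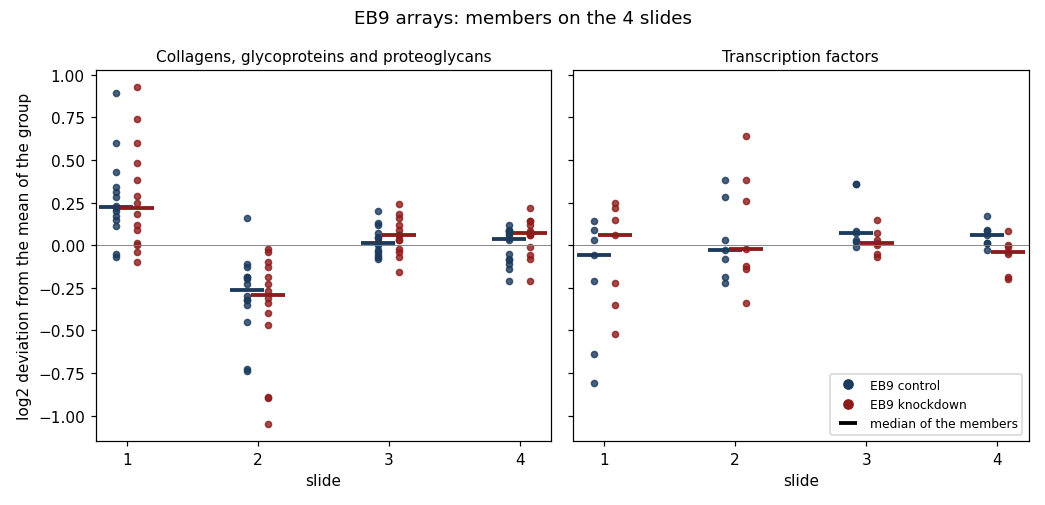
Deviation of each EB9 array from its group mean (vertical axis, log2) by slide, for 14 collagens, glycoproteins and proteoglycans and for 7 transcription factors, in control and KD33; points are genes and thick bars medians. On slide 2 the matrix medians are -0.26 and -0.29 and those of the transcription factors -0.03 and -0.02. Single factors range there from -0.22 to 0.38 in control and from -0.34 to 0.64 in KD33. The same medians over all genes were not taken.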

How the data were processed

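RNA of 15 samples was hybridised to single-colour Agilent arrays, 1 array a sample, from 500 ng of total RNA labelled with Cy3 per the labels. The deposited scanner files hold processed signal intensity from Agilent Feature Extraction 10.7.3.1, with spatial and multiplicative detrending and surrogate values for signals near background switched on and the BackgroundCorrection setting off, per the file headers. These intensities were not normalized between arrays. The authors' deposited value table holds log2 values, which normexp background correction (offset 50) and quantile normalization of the scanner signals gave back within 0.000154; that table served as an alternative. Probe coordinates are those of the files (mm9).

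Control features and those marked non-uniform or population outlier were left out, log2 of the processed signal was taken less the array's 75th percentile, and spots of a probe were averaged (39429 probes). A probe was kept if 3 or more arrays of any 1 group measured it well above background (27248 probes), and a gene was read from its brightest kept probe (21217 genes). limma 3.58.1 in R 4.3.3 fitted 1 mean per group over all 15 arrays, with Benjamini-Hochberg adjustment over all genes and a threshold of 0.05; a second probe of a gene was read from a fit over all kept probes. The fit was tested on simulated data with independent noise and no deviation shared by the arrays of a slide. That test therefore does not cover such deviations in the real arrays. Intervals and p-values measure the spread between these arrays, and the number of arrays limits their precision.

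Members and lists of other genes were chosen with earlier results of these data known. All members were named, with full values for the 3 largest called differences of each role (4 among transcription factors); of each list, the largest called difference in either direction was named. Arrays that shared a slide but not a group deviated together (median correlation 0.43 over 21 pairs, 0.21 to 0.63), those with the same replicate number did so unevenly (0.34, -0.59 to 0.55), and slide entered as a block in an alternative. Other alternatives were a replicate block, normexp, quantile normalization, the authors' values, other filters on dim probes, the mean of a gene's probes, fits of the compared groups alone, array weights and the omission of each array. Promoter windows came from RefSeq (GRCm38.p6), a build other than that of the probes, and were joined by symbol.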

Additional observations from a re-analysis of the deposited data

Results flagged for a closer look

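In 105 sets of 4 arrays (35 members in 3 groups), 2 held an array that lay apart from the others by Dixon's criterion, which chance gives in about 1 set in 20. Col6a2 read -5.20 on ES KD33 2, with the others between -4.98 and -4.96. Fap read -7.05 on EB9 control 2, with the others between -6.18 and -6.04.

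For 11 members the effect of KD33 differed between EB9 and ES cells by the interaction test of the limma fit. Of the members 8.57% were called higher in EB9 and 22.9% lower, near the 12.7% and 16.9% of all genes. The difference, EB9 less ES, was 1.01 for Pdgfra, 0.53 for Col1a1 and 0.52 for Zeb1. It was -3.09 for Twist2, -2.06 for Fap, -1.69 for Alcam, -1.14 for Twist1, -1.03 for Acta2, -0.89 for Cdh2, -0.80 for Thy1 and -0.75 for Fbn1. The sizes for Twist2 and Alcam depend on background signal, as neither was well above background on any ES control array. Fap passed the filter on dim probes through EB9 control alone, so its value is a description.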

How the results depend on the processing

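The counts between EB9 and ES cells stayed within 1.5 times the reported ones in every alternative, and those of KD33 against control moved. In ES KD33 the 7 higher members became 11 in a fit of the compared groups alone and 14 with array weights, and the 4 lower became 8 with array weights. Calls over all 21217 genes, in either direction, moved as well, from 8154 to 9359 and 12212 in these 2 settings. In EB9 KD33 the 0 higher became 4 with a slide block, 3 with the replicate block, 2 with normexp, 2 with quantile normalization, 4 with the authors' values, 1 with a filter on every array and 5 with array weights, and the 4 lower became 7 with a slide block and 2 in a fit of the compared groups alone. Over all genes the 3216 calls in EB9 KD33 became 5669 with a slide block, 3733 with the replicate block and 6020 with array weights. They became 2375 with normexp, 3184 with quantile normalization, 2575 with the authors' values and 1126 in the compared groups alone. Of the differences between the effects, the 3 higher became 6 and the 8 lower 13 with array weights. The calls of that difference over all genes went from 6296 to 9241. Col5a2 in ES KD33 reversed to 0.03 under normexp. The cause of these changes was not tested. Leaving out each array gave 7 to 10 higher and 3 to 4 lower in ES KD33, 0 to 5 and 1 to 5 in EB9 KD33, 32 to 33 and 1 between EB9 and ES control, 31 to 32 and 1 between EB9 and ES KD33, and 2 to 5 and 6 to 8 for the difference. In EB9 KD33, the 0 higher were 5 without EB9 KD33 2, 3 without EB9 control 1, and 1 without ES KD33 3 or EB9 control 3, and the 4 lower were 2 without EB9 KD33 3 and 1 without EB9 KD33 4, EB9 control 3 or EB9 control 4. Over all genes the EB9 KD33 calls were 4397 without EB9 KD33 2 and 1805 without EB9 KD33 4. The 3 higher differences were 5 without EB9 KD33 2, where 6758 of all genes were called for the difference. Keeping all probes moved the median of all genes between EB9 and ES control from -0.141 to 0.115. Signal near background limits Col5a2, Fap, Lox, Lum, Dcn, Postn, Col3a1 and Prrx1 in ES cells, and Twist2 and Alcam in ES control cells. Fitted folds have little or no measured base there.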
